A study of Mus musculus with 6 samples.

Results

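A set of 10 genes of the retinal ribbon synapse was described in whole-retina RNA-seq of 240-day-old mice, with 3 WT retinas and 3 Wfs1-/- (Wfs1-KO) retinas. The members were chosen by symbol, as the scaffold, calcium channel, complexin and fusion genes of photoreceptor and bipolar terminals, and all 10 were found among the 55376 genes of the count table. Wfs1-KO mice carry a targeted deletion of exon 8 of Wfs1, the gene of wolframin, a membrane protein of the endoplasmic reticulum, in every cell of the body. The deletion was the 1 stated difference between the genotypes. The strain is C57x129 in the sample labels and C57BL/6 J in the methods of the study. The methods of the study count 3 mice in each genotype, and the labels number the samples as replicates without naming the animals.

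A ribbon is a protein plate that stands at the active zone of rods, cones and bipolar cells and holds a row of synaptic vesicles beside the calcium channels. These cells answer light with graded voltage changes, so that calcium channels at the ribbon open and close continuously and glutamate release follows them. Ribbon terminals replace several parts of the conventional release machinery with their own paralogs, among them complexins 3 and 4 and syntaxin 3. Mutations of the channel genes and of Cabp4 cause inherited disorders of photoreceptor transmission in humans.

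Members are ordered here by role. The scaffold genes are Ctbp2, whose product RIBEYE builds the ribbon, and Bsn and Pclo, the giant active zone proteins bassoon and piccolo, the former of which anchors photoreceptor ribbons. The channel genes are Cacna1f, the pore subunit Cav1.4, Cacna2d4, its auxiliary subunit in photoreceptors, and Cabp4, a calmodulin-like regulator of the channel. The release genes are Cplx3 and Cplx4, the ribbon complexins, Stx3, the syntaxin of ribbon terminals, and Syt1, a calcium sensor of vesicle fusion that conventional synapses use too.

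The Ctbp2 count joins products of separate starts. On mm10, Ctbp2 (ENSMUSG00000030970.16) spans chromosome 7 from 132987578 to 133123367 on the minus strand. The transcript with the longest reading frame, 988 codons, begins with an exon of its own from 133013518 to 133015248, which holds 1731 of the 4095 exon bases counted, or 42.3%. This is the RIBEYE form. The other products of the gene, the transcriptional co-repressor CtBP2, reach 445 codons and lack that exon, and counts per gene do not separate them from RIBEYE. The gene Cplx3 (ENSMUSG00000039714.9, chromosome 9 from 57599992 to 57606281, minus strand) codes for a complexin of at most 158 codons. A stretch before each of these starts is shown, since each holds a short motif known from photoreceptor genes: TAATCC, the core bound by CRX and OTX2, or TGCTGA, part of the element bound by NRL. The sequences are from RefSeq on GRCm38.p6, written on the minus strand, with the motif letters in capitals as they read on that strand.
Ctbp2 RIBEYE start, chr7:133015351-133015380: taaggtttcagaGGATTAataatttaggtc
Cplx3 start, chr9:57606282-57606531: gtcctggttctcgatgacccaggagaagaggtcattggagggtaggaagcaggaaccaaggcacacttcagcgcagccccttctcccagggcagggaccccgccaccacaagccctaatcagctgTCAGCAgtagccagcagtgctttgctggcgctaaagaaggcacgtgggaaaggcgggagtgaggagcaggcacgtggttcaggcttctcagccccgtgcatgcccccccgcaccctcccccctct
The first is the reverse complement of TAATCC at 121 bases before the RIBEYE start, and the second the reverse complement of TGCTGA at 125 bases before the Cplx3 start. Searched on both strands in the 250 bases before each start, TAATCC was in 1 of 9 windows of the 7 members that had one, and TGCTGA in 1 of 9. Among all 32851 windows of that length, 6.25% held TAATCC and 16.1% held TGCTGA. A match is a description of letters and no evidence of binding. No window was held for Cacna2d4 and Cabp4, and none was read for Cplx4.

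Total counts ranged from 17916885 (WT replicate 3) to 101334381 (Wfs1-KO replicate 1). The members were well covered, with at least 2118 counts for any member in any retina, and all 10 passed the low-count filter that left 18547 genes. Levels are given as CPM, the count over the library total in units of 1e+06 after scaling with edgeR's TMM factors, on which 3 counts, taken as the floor of detection, correspond to at most 0.170 CPM. Wfs1 itself had between 61.4 and 69.9 CPM in WT and at most 11.5 CPM in mutant retinas. Each library thus matched the genotype of its label. Wfs1 stood at 1.38% of the WT mean in Wfs1-KO replicate 2 and on average at 16.1% in Wfs1-KO replicates 1 and 3. Wfs1-KO replicate 2 stood apart, with a mean Pearson correlation of 0.918 to the other 5 retinas across tested genes against 0.962 to 0.971 for each of those. Its summed CPM of 7 microglia markers was 209, against 37.9 to 55.2 in the others, that of 8 pigment epithelium markers 396 against 40.1 to 106, that of 9 lens markers 9.50 against at most 3.76, and that of 6 blood markers 480 against 12.3 to 41.2. In all, 3 lens, 1 blood and 1 myelin marker had no count in at least 1 retina. All 10 rod, 8 cone and 11 bipolar markers were detected in all 6 retinas, so that the ribbon-bearing cell types were present throughout. Differences without Wfs1-KO replicate 2 are therefore given beside those of all 6. Since whole retina was sequenced, fewer cells of a type and less RNA per cell cannot be told apart.

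For no ribbon synapse gene did the difference between genotypes pass the test against the spread between retinas. By the quasi-likelihood test of edgeR, adjusted over all tested genes after Benjamini and Hochberg, 0 of 10 members passed an adjusted p of 0.05, where 0.0108% of all tested genes passed. At an unadjusted p under 0.05 the count was also 0 of 10, against 2.81% of all tested genes (2.24% higher and 0.566% lower). DESeq2, which called 0.248% of its genes, and limma-voom called 0 members as well. Adjusted p-values of the members lay between 0.979 and 0.994. There were 6 members with a log2 difference (the fitted log2 fold change, Wfs1-KO minus WT, given with its standard error, SE) below 0 and 4 with one above, and the median was -0.03 beside 0.02 for all tested genes. The intervals leave room for moderate change: the narrowest 95% interval, that of Ctbp2, ran from -0.12 to 0.70 on the log2 scale, and the widest, of Bsn, from -0.93 to 0.87. Without Wfs1-KO replicate 2 again 0 of 10 passed (0.125% of all genes did, and 0.478% by DESeq2, which also called 0 members), and the median was 0.0034 beside -0.00038 for all genes.

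**Figure D1:**
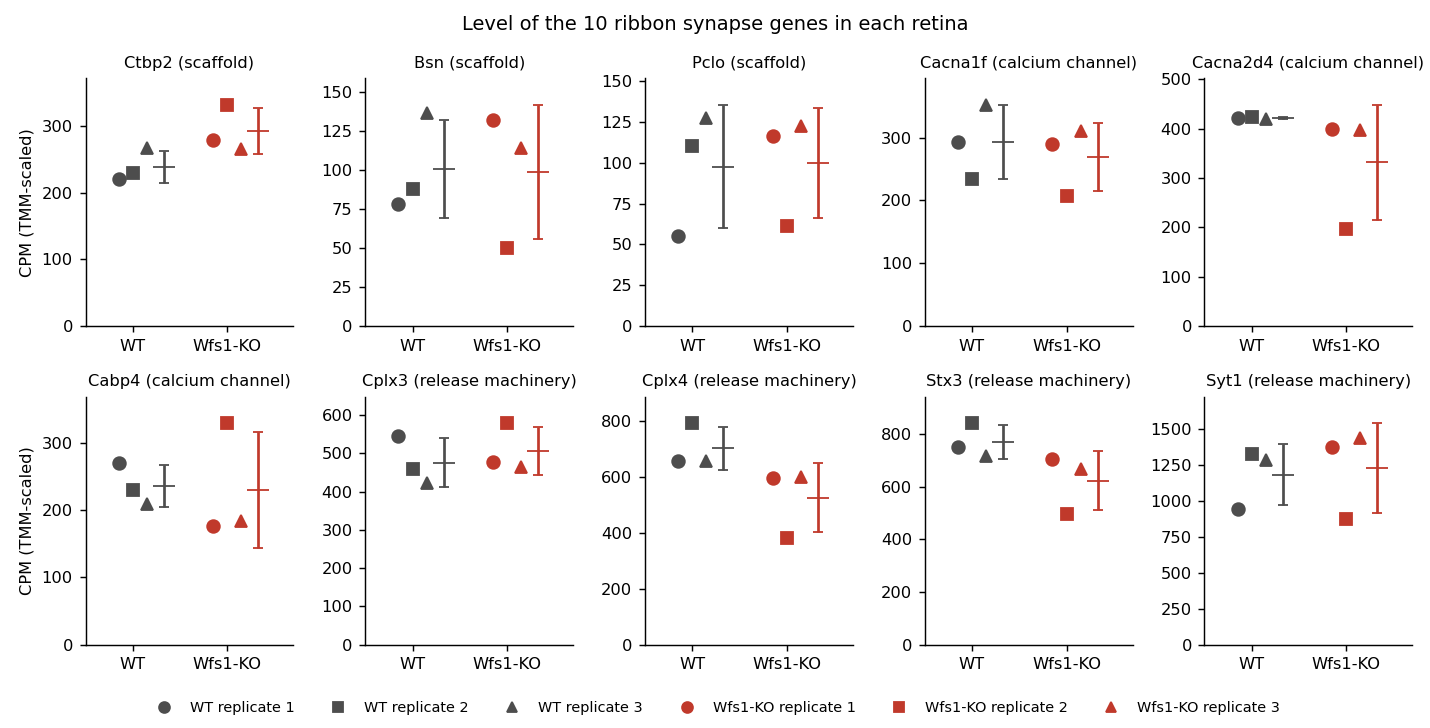
CPM (TMM-scaled, linear axes from 0) of each of the 10 genes in each retina, WT in grey and Wfs1-KO in red, with the marker shape giving the replicate and the bar the mean and SD of 3 retinas. Wfs1-KO replicate 2 (red square) is the lowest of the 6 retinas for 6 genes and the highest for Ctbp2, Cabp4 and Cplx3.

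**Figure D2:**
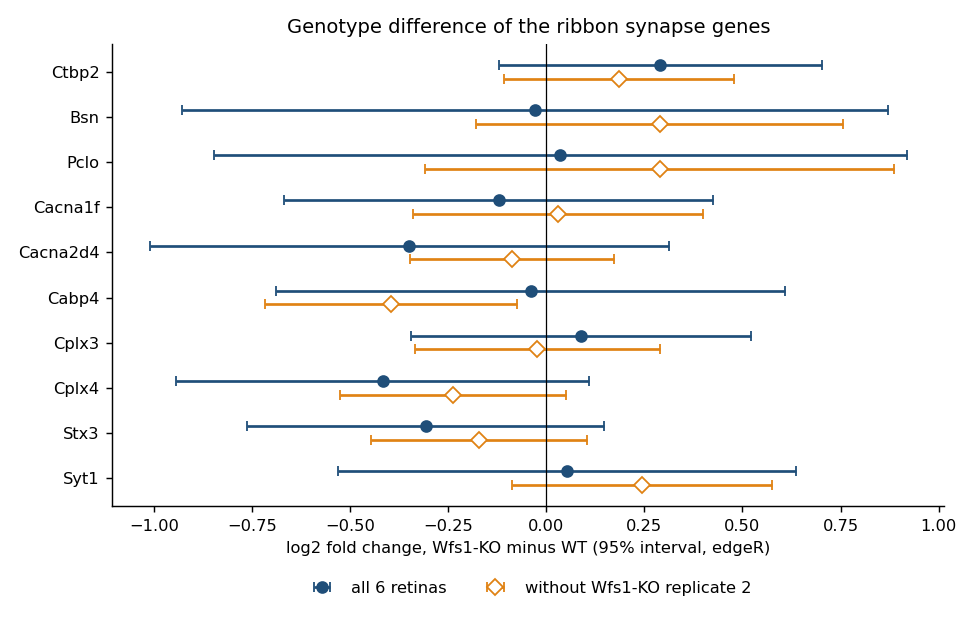
Log2 fold change of each member, Wfs1-KO minus WT, with its 95% interval from edgeR, for all 6 retinas (filled circles) and without Wfs1-KO replicate 2 (open diamonds). With all 6 retinas every interval spans 0, and without that retina the interval of Cabp4 alone does not.

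Among the scaffold genes, Ctbp2 was the one member with a mutant mean over 20% above WT. Its level was 221, 230 and 267 CPM in WT replicates 1, 2 and 3 and 279, 332 and 267 CPM in Wfs1-KO replicates 1, 2 and 3. The mutant retinas lay above the WT retinas except that WT replicate 3 (266.8) and Wfs1-KO replicate 3 (266.6) were level. The log2 difference came to 0.29 with an SE of 0.18 (edgeR, adjusted p = 0.979), and 0.19 (SE 0.13) without Wfs1-KO replicate 2. Since RIBEYE and CtBP2 share the count, this value belongs to neither product alone. Of the counted Ctbp2 exon bases, 314 (7.67%) also lie in exons of Fgfr2 on the same strand, a gene with at most 178 counts in any retina.

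Bsn and Pclo varied more within each genotype than between them. Bsn (chromosome 9 from 108096022 to 108190384) had 78.1, 87.8 and 137 CPM in WT and 132, 50.2 and 114 CPM in mutant retinas. Its log2 difference came to -0.03 with an SE of 0.38 (edgeR, adjusted p = 0.994), and 0.29 (SE 0.21) without Wfs1-KO replicate 2, which had 49.7% of the WT mean. Pclo (chromosome 5 from 14514918 to 14863459) had 55.1, 110 and 128 CPM in WT and 116, 61.4 and 122 CPM in mutant retinas. Here WT replicate 1 was below every mutant retina, and the log2 difference came to 0.04 with an SE of 0.38 (edgeR, adjusted p = 0.992), or 0.29 (SE 0.27) without Wfs1-KO replicate 2. Of the counted Pclo exon bases, 496 (2.25%) lie opposite exons of the antisense gene Gm26954, which had at most 4771 counts in any retina. Pclo itself had between 2249 and 11980 counts. No strand setting of the count is given, so that reads on the shared bases could be of either gene.

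The 3 channel genes had unlike arrangements of values. Cacna1f (chromosome X from 7607099 to 7635196) had 293, 234 and 352 CPM in WT and 290, 208 and 311 CPM in mutant retinas. The genotypes overlapped, with Wfs1-KO replicate 2 below every WT retina. The log2 difference came to -0.12 with an SE of 0.23 (edgeR, adjusted p = 0.979). The gene is X-linked, and the retina with the most, WT replicate 3, was the one with 4 counts of Xist (at least 10583 elsewhere) and 1137 of Ddx3y (at most 2 elsewhere), as in a male. Without Wfs1-KO replicate 2 the log2 fold change turned to 0.03 (SE 0.17), without WT replicate 3 it was 0.01, and the part of sex was not tested.

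Cacna2d4 (chromosome 6 from 119236526 to 119352407) was the steadiest member in WT, at 422, 424 and 420 CPM, an SD of 1.79 (n = 3). Mutant retinas had 400, 197 and 398 CPM, each below each WT retina. The log2 difference came to -0.35 with an SE of 0.28 (edgeR, adjusted p = 0.979), and -0.09 (SE 0.12) without Wfs1-KO replicate 2, in which it stood at 46.6% of the WT mean. In the other 2 mutant retinas it stood at 94.5% of that mean. The genotypes did not overlap, but most of the difference lay in 1 retina.

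Cabp4 (chromosome 19 from 4135423 to 4139609) had the reverse arrangement. It had 271, 230 and 210 CPM in WT and 177, 330 and 185 CPM in mutant retinas, so that Wfs1-KO replicate 2 was the highest of all 6 and the other mutants the lowest. The log2 difference came to -0.04 with an SE of 0.28 (edgeR, adjusted p = 0.988). In the fit lacking Wfs1-KO replicate 2 this became -0.40 (SE 0.15, unadjusted p = 0.0203, adjusted p = 0.800, edgeR), and both remaining mutant retinas were below all WT retinas. It was the 1 member of 10 at an unadjusted p under 0.05 in that fit, where 5.19% of all genes were (2.39% lower and 2.8% higher).

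The ribbon complexins are described side by side. Cplx3 had 547, 460 and 422 CPM in WT and 477, 579 and 464 CPM in mutant retinas. The genotypes overlapped, with Wfs1-KO replicate 2 above every WT retina. Its log2 difference came to 0.09 with an SE of 0.18 (edgeR, adjusted p = 0.979), and -0.02 (SE 0.14) without Wfs1-KO replicate 2. Cplx4 (chromosome 18) had 659, 792 and 656 CPM in WT and 597, 382 and 600 CPM in mutant retinas, each below each WT retina. The log2 difference of -0.42 (SE 0.22, unadjusted p = 0.104, adjusted p = 0.979, edgeR) was the largest in size among the members and became -0.24 (SE 0.13) without Wfs1-KO replicate 2.

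Stx3 (chromosome 19 from 11775118 to 11818942) had 750, 840 and 717 CPM in WT and 704, 494 and 668 CPM in mutant retinas. The genotypes again did not overlap, with a gap between the lowest WT and the highest mutant retina that was small beside the spread. The log2 difference came to -0.31 with an SE of 0.19 (edgeR, adjusted p = 0.979), and -0.17 (SE 0.12) without Wfs1-KO replicate 2. Stx3 has 4 coding transcripts in the annotation, and the retinal form syntaxin 3B is not separated in the count.

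Syt1 (chromosome 10 from 108497650 to 109010982) was the most counted member, with 942, 1328 and 1286 CPM in WT and 1377, 872 and 1440 CPM in mutant retinas. Wfs1-KO replicate 2 and WT replicate 1 were the lowest. The log2 difference came to 0.05 with an SE of 0.25 (edgeR, adjusted p = 0.984), and 0.24 (SE 0.15) when Wfs1-KO replicate 2 was left out, both remaining mutant retinas then being above all WT retinas.

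Counted by overlap, 3 of 10 members (Cacna2d4, Cplx4 and Stx3) were lower in every mutant retina than in any WT retina, where 3.94% of all tested genes were, and 0 of 10 were higher in every mutant retina, against 5.01% (8.96% for either direction). Without Wfs1-KO replicate 2 the same 3 genes and Cabp4 were lower (4 of 10, against 11.2% of all genes) and Syt1 was higher (1 of 10, against 11.4%). With library totals in place of TMM factors the count lower was 2, Stx3 being the one lost. Cacna2d4, Cplx4 and Stx3 are expressed by photoreceptors, as are Cacna1f, Cabp4, Ctbp2 and Bsn, whose genotypes overlapped with all 6 retinas. Of 10 rod markers, 3 (Nr2e3, Gnat1 and Pde6b) were lower without overlap. Another 2, Cnga1 (0.63) and Sag (0.0030), had log2 fold changes above 0, which were -0.29 and -0.25 without Wfs1-KO replicate 2. The median log2 fold change of the 10 was -0.18, and -0.24 without that retina. Their summed CPM was 69172 to 76857 in WT and 55301 to 68532 in mutant retinas. Their mean log2 CPM was 11.61 in Wfs1-KO replicate 2, within the WT range of 11.58 to 11.71. It was 11.41 and 11.42 in Wfs1-KO replicates 1 and 3. The part of rods in the member values was not tested. None of the 10 rod markers passed an adjusted p of 0.05 in either fit (edgeR). Without Wfs1-KO replicate 2, 3 of 10 had an unadjusted p under 0.05, each lower, against 5.19% of all genes (2.39% lower). The 11 bipolar markers had a median log2 fold change of 0.15, with 8 above 0, and a median of 0.16 without that retina. Relative to the mean of the rod markers in the same retina, a scale chosen after the data were seen, 0 of 10 members were lower without overlap (0.830% of all genes) and Ctbp2 and Cplx3 were higher (2 of 10, against 14.7%).

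The mutant retina that stood apart divided the members. In Wfs1-KO replicate 2, Cabp4 stood at 139%, Ctbp2 at 139% and Cplx3 at 122% of the WT mean, each the highest of the 6 retinas. The other 7 members stood between 46.6% (Cacna2d4) and 73.6% (Syt1), each the lowest of the 6 except Pclo, which was lower still in WT replicate 1. The remaining mutant retinas, replicates 1 and 3, stood on average between 76.4% (Cabp4) and 122% (Bsn and Pclo) of the WT mean and lay close to each other for every member. The median absolute distance of a retina from the mean of the other 5 over the 10 members was 0.60 on the log2 scale for Wfs1-KO replicate 2 and between 0.13 and 0.28 for the other retinas. Over all tested genes it was 0.65 and between 0.20 and 0.26, so the members shared in a difference that ran through the whole library.

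**Figure D3:**
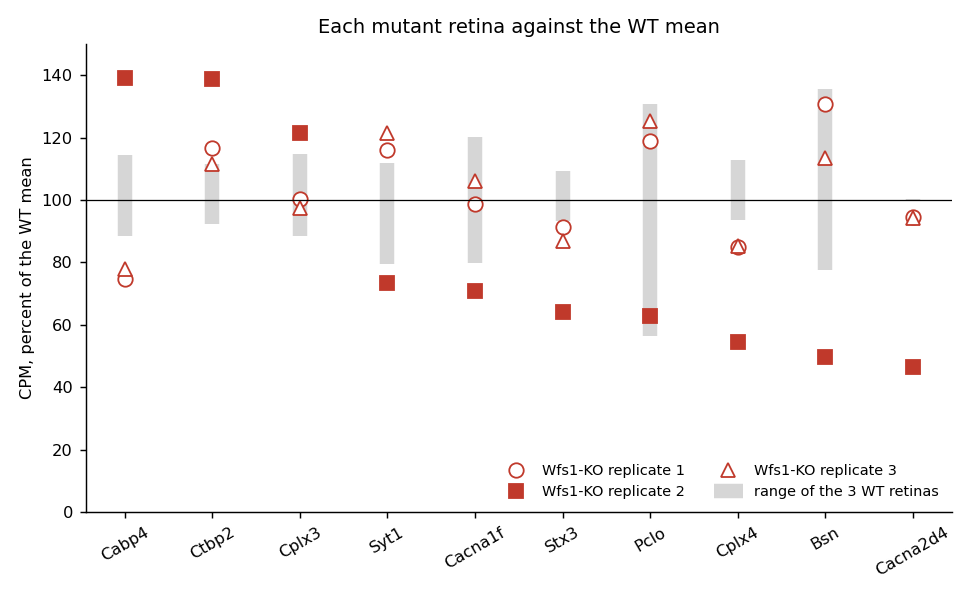
CPM of each mutant retina as a percent of the WT mean, for each member, with the range of the 3 WT retinas as a grey bar. The filled squares of Wfs1-KO replicate 2 run from 139% for Cabp4 to 46.6% for Cacna2d4, while the open symbols of replicates 1 and 3 lie near each other.

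Exon length moved with these deviations. In Wfs1-KO replicate 2 the distance from the mean of the other 5 retinas had a Spearman correlation with exon length of -0.40 across the 18547 tested genes and of -0.56 across the 10 members, which share the library and range from 1433 bases (Cabp4) to 22051 bases (Pclo). WT replicate 1 had values of the same sign, -0.25 across genes and -0.68 across members. WT replicate 3 and Wfs1-KO replicates 1 and 3 had positive values, between 0.29 and 0.32 across genes and between 0.84 and 0.87 across members. WT replicate 2 differed in sign between the sets, with 0.26 across genes and -0.15 across members. The long transcripts of Bsn and Pclo were thus low and the short one of Cabp4 high in the same 2 libraries, one of each genotype. Cplx4, with 1815 exon bases, was an exception, being short and low in Wfs1-KO replicate 2 (-0.78 on the log2 scale). Other members also departed from the order of length in that retina. Ctbp2 (4095 bases) stood at 0.40 and Stx3 (4521 bases) at -0.57, and Cacna2d4 (5803 bases, -1.07) was below Pclo (-0.73). The part of length or RNA quality in the values was not tested.

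Ratios between paired members are free of library scaling and were compared per retina from levels per exon length. The Cplx4 to Cplx3 ratio was 1.96, 2.80 and 2.53 in WT replicates 1, 2 and 3 and 2.04, 1.07 and 2.10 in Wfs1-KO replicates 1, 2 and 3. On the log2 scale the mean was 1.27 ± 0.27 (SD, n = 3) in WT and 0.73 ± 0.55 (SD, n = 3) in mutant retinas, a difference of -0.53 (two-sided exact permutation test, p = 0.3, adjusted over the 3 ratios 0.6), and of -0.22 without Wfs1-KO replicate 2. The Cacna2d4 to Cacna1f ratio was 1.51, 1.90 and 1.25 in WT and 1.45, 0.994 and 1.34 in mutant retinas, a log2 difference of -0.30 (exact permutation test, p = 0.4, adjusted 0.6). Leaving out 1 retina brought it to -0.14, whether Wfs1-KO replicate 2 or WT replicate 2. The Pclo to Bsn ratio was 0.510, 0.908 and 0.675 in WT and 0.637, 0.884 and 0.774 in mutant retinas, a log2 difference of 0.16 (exact permutation test, p = 0.7, adjusted 0.7). This was 0.049 without Wfs1-KO replicate 2, 0.37 without WT replicate 2 and -0.046 without WT replicate 1. With 3 retinas against 3 the smallest p this test can give is 0.1, and the genotypes overlapped for all 3 ratios.

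Levels between members were compared as RPKM, the scaled counts per kilobase of exon. In WT the order was Cplx4 (387 ± 42.7 RPKM, SD, n = 3), Syt1 (246 ± 43.8), Stx3 (170 ± 14.1), Cabp4 (165 ± 21.8), Cplx3 (161 ± 21.7), Cacna2d4 (72.7 ± 0.31), Ctbp2 (58.4 ± 5.94), Cacna1f (48.2 ± 9.70), Bsn (6.33 ± 1.97) and Pclo (4.43 ± 1.72). The ranges over the 3 WT retinas of Stx3, Cabp4 and Cplx3 overlapped, as did those of Ctbp2 and Cacna1f and those of Bsn and Pclo, while the other neighbours were apart. In mutant retinas Cplx4 (290 ± 68.8 RPKM, SD, n = 3) and Syt1 (255 ± 64.5) overlapped, and Stx3 (138 ± 24.8) came behind Cplx3 (172 ± 21.2) and Cabp4 (161 ± 60.0). The place of Cabp4 before Stx3 rests on Wfs1-KO replicate 2, since Stx3 was the higher in Wfs1-KO replicate 1 (156 against 124 RPKM) and replicate 3 (148 against 129 RPKM). Cplx4 was first in 5 of the 6 retinas, and in Wfs1-KO replicate 2 it was second, behind Cabp4 at 230 RPKM. In all 6 retinas Bsn and Pclo came last, in that order.

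**Figure D4:**
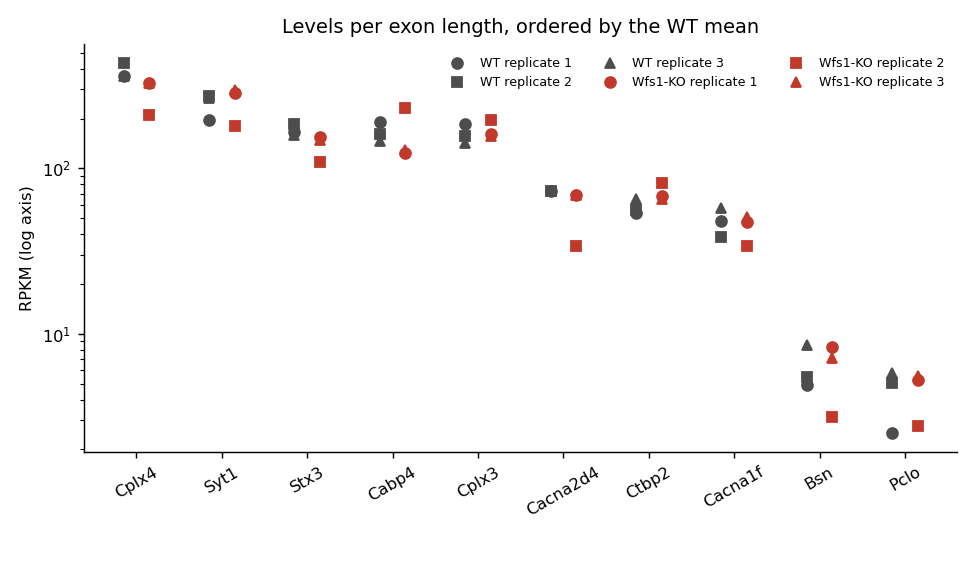
RPKM (log axis) of each member in each retina, in the order of the WT mean, WT in grey and Wfs1-KO in red. Cplx4 heads the order at 387 RPKM in WT, and Bsn and Pclo lie at 6.33 and 4.43 RPKM.

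The members fell into groups that varied together over the 6 retinas, described here by Pearson correlations of log2 CPM that rest largely on Wfs1-KO replicate 2. Cplx4 and Stx3 were closest (r = 0.99, n = 6 retinas), and stayed close without that retina (r = 0.96, n = 5). Pclo and Syt1 followed (r = 0.95 with and without it). Cacna2d4 went with Cplx4 and with Stx3 (r = 0.93 for each, and 0.80 and 0.78 without it). Cabp4 and Cplx3 ran opposite to Bsn, with r of -0.93 and -0.87 (-0.84 and -0.72 without Wfs1-KO replicate 2). Cabp4 also ran opposite to Syt1 (r = -0.94, and -0.88 without it), and Cplx3 to Pclo (-0.93, and -0.91). Ctbp2 ran opposite to Stx3 (-0.90, and -0.73 without it) and to Cplx4 (-0.88, and -0.68). Ctbp2 turned from r = -0.27 with Bsn over 6 retinas to 0.96 over 5, so that this relation depended on 1 library. Outside the members, the genes with at least 5 log2 CPM whose pattern was most like the members' mean were Tmem131, Rlf, Nup98, Tnr and Nup153, each with r over 0.99 across the 6 retinas. Of the 6320 genes compared, 24.8% had r over 0.9, so this likeness is common in these libraries.

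Partner genes of the ribbon synapse gave 0 calls as well. Of 16 genes of the active zone and ribbon, 0 passed an adjusted p of 0.05 (edgeR) or an unadjusted p of 0.05, and their median log2 fold change was -0.10, and 0.0045 without Wfs1-KO replicate 2. The 3 largest in size were Mpp4, a scaffold of photoreceptor terminals (-0.54, SE 0.39), Kif3a, a kinesin motor also found at ribbons (0.34, SE 0.29), and Dlg4, which encodes PSD-95 (-0.24, SE 0.21). Without Wfs1-KO replicate 2, Kif3a turned to -0.05 and Dlg4 stood at -0.08. Mpp4 had 315, 293 and 292 CPM in WT and 247, 90.6 and 282 CPM in mutant retinas, without overlap, and its log2 fold change was -0.19 without Wfs1-KO replicate 2.

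Of 16 genes of calcium entry and clearance, 0 passed an adjusted p of 0.05 and 1, Cacna2d3, had an unadjusted p under 0.05 (edgeR), against 2.81% of all tested genes, or 0.566% in its direction. The median log2 fold change was 0.01, and 0.04 without Wfs1-KO replicate 2. Cacna2d3, an auxiliary subunit of voltage-gated calcium channels named here after its value was seen, had 67.4, 68.1 and 82.2 CPM in WT and 49.4, 46.1 and 60.6 CPM in mutant retinas. Its log2 difference came to -0.48 with an SE of 0.18 (edgeR, adjusted p = 0.979), and -0.40 (SE 0.15, adjusted p = 0.813) without Wfs1-KO replicate 2. In that fit 1 gene was also higher at an unadjusted p under 0.05, the channel gene Cacna1d (0.45, SE 0.17, edgeR adjusted p = 0.813), named likewise after its value was seen, with 29.7, 40.3 and 44.4 CPM in WT and 53.3, 20.8 and 51.2 CPM in mutant retinas. The 3 largest in size were the calcium-binding protein genes Cabp2 (0.78, SE 0.52) and Cabp1 (0.61, SE 0.38) and the calcium pump gene Atp2b1 (0.58, SE 0.32). For all 3 the level in Wfs1-KO replicate 2 was the highest of the 6 retinas, and without it their log2 fold changes were -0.15, 0.07 and 0.17.

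Of 18 genes of vesicle fusion and recycling, 0 passed an adjusted or an unadjusted p of 0.05, with a median log2 fold change of -0.03, and 0.02 without Wfs1-KO replicate 2. The largest in size were Syt11, a synaptotagmin that does not bind calcium (0.75, SE 0.44, and -0.01 without Wfs1-KO replicate 2), Bin1, an amphiphysin (0.33, SE 0.31), and Slc17a7, the vesicular glutamate transporter of photoreceptors and bipolar cells (-0.30, SE 0.23). With that retina left out, Bin1 turned to -0.09 and Slc17a7 stood at -0.12. Slc17a7 had 2709, 2174 and 2546 CPM in WT and 2313, 1431 and 2274 CPM in mutant retinas. The genotypes overlapped.

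Across the cleft, 0 of 18 trans-synaptic and ON bipolar genes passed an adjusted or an unadjusted p of 0.05, with a median log2 fold change of -0.13, and 0.02 without Wfs1-KO replicate 2. Lrit3, a leucine-rich protein of rods needed for the bipolar channel complex, had 31.9, 45.7 and 59.0 CPM in WT and 44.9, 1.61 and 47.0 CPM in mutant retinas, a log2 difference of -0.54 (SE 0.93) that was 0.02 without Wfs1-KO replicate 2. Gnb3, a G protein subunit of cones and ON bipolar cells, had a log2 difference of 0.52 (SE 0.29), and Rgs9bp, the anchor of the RGS9 complex, one of -0.43 (SE 0.35). When that retina was left out these became 0.14 and -0.11. Of 12 genes of conventional synapses, 0 passed an adjusted or an unadjusted p of 0.05, with a median of -0.08, and -0.02 without Wfs1-KO replicate 2, where 1 gene, Syn3, a synapsin named after its value was seen, had an unadjusted p under 0.05 (0.50, edgeR adjusted p = 0.918). The largest in size were Cplx2 (0.63, SE 0.37, and 0.04 without Wfs1-KO replicate 2), Slc17a6 (-0.29, SE 0.23, and -0.10) and Cplx1 (-0.26, SE 0.17, and -0.21), the last value of each being that without this retina.

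**Figure D5:**
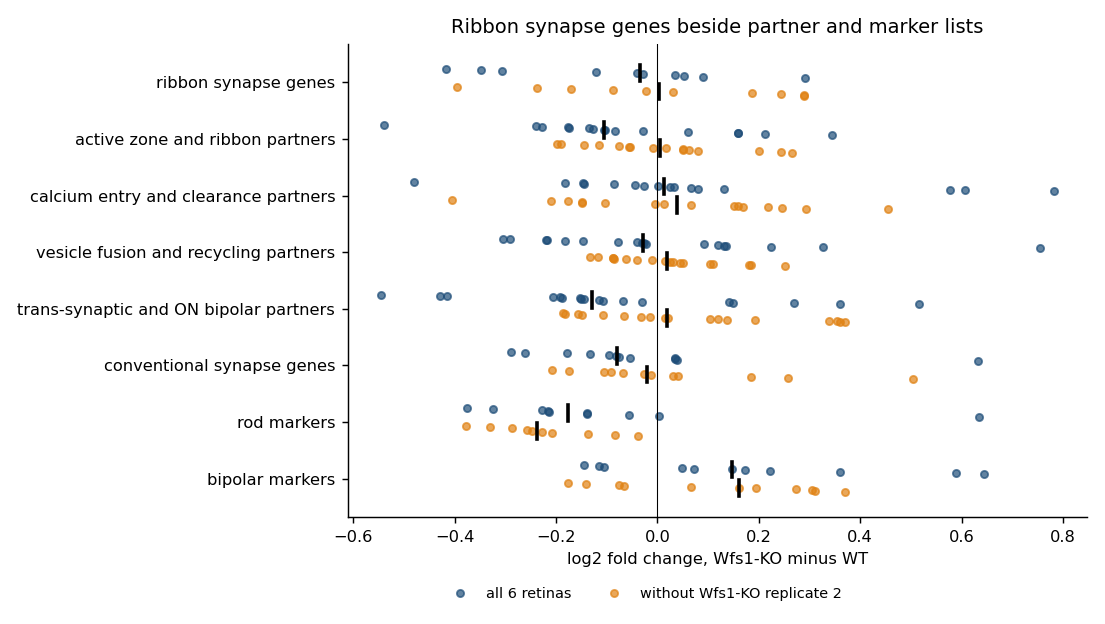
Log2 fold changes, Wfs1-KO minus WT, of the tested genes of each list (points) with the list median (black bar), for all 6 retinas (blue) and without Wfs1-KO replicate 2 (orange). Medians of the ribbon, partner and conventional synapse lists lie between -0.13 and 0.04 in both fits. That of the rod markers lies at -0.18 and -0.24, and that of the bipolar markers at 0.15 and 0.16.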

How the data were processed

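RNA of whole retina was sequenced from 3 WT and 3 Wfs1-KO samples. Per the labels and the submitters' processing notes, the authors trimmed reads with Trimmomatic 0.39, mapped them to mm10 with STAR 2.5.3a and counted them with featureCounts 1.6.4 (the methods of the study give other versions of the first and second). The deposited values are raw counts per gene on exons, without normalization. Of 8 library columns, 2 match no listed sample and were not used. C in a column name was read as control (WT) and W as Wfs1-KO. Exon lengths equalled the GENCODE M21 basic set for 99.2% of the genes found in it.

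The genotype effect was fitted in R 4.3.3 by edgeR 4.0.16 (quasi-likelihood, TMM, default filter, genotype as the only term, Benjamini-Hochberg adjustment). The procedure was also run on simulated counts, with changes larger than those of the members and no outlying retina. That run therefore does not tell how the procedure performs on differences of the size seen here. A standard error is the log2 fold change divided by the square root of F. DESeq2 1.42.0, limma-voom (limma 3.58.1), 3 normalizations, 2 filters, a replicate block and leaving out each retina were alternatives. For correlations, 2 was the prior count of log2 CPM. Floors and SDs cover counting error and these 6 retinas, and no duplicate library was found. Named genes are the members, Wfs1, the 3 largest log2 fold changes in each partner list, any partner past the threshold, the 5 genes most like the members' mean, and markers where a result turns on them. Cacna2d3, Cacna1d and Syn3 fall outside this rule and were named after their values were seen. Members and lists were chosen with earlier results of these data known.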

Additional observations from a re-analysis of the deposited data

How the results depend on the processing

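The count of 0 members past an adjusted p of 0.05 was 0 under each of the 15 alternatives run. Under the 8 that kept all 6 retinas, all 80 member log2 fold changes kept their direction, and the median member difference lay between -0.10 and -0.02. On the rod marker scale, apart from these, the median turned to 0.05. Leaving out 1 retina in turn turned the direction of 6 members: Bsn (-0.29 to 0.29), Pclo (-0.25 to 0.29), Cacna1f (-0.26 to 0.030), Cabp4 (-0.40 to 0.11), Cplx3 (-0.023 to 0.20) and Syt1 (-0.089 to 0.24). The Pclo to Bsn log2 ratio difference ranged from -0.046 to 0.37. Cacna2d4 (-0.51 to -0.09), Cplx4 (-0.52 to -0.24), Stx3 (-0.41 to -0.17) and Ctbp2 (0.19 to 0.36) kept theirs. The count of members higher without overlap was 1 (Ctbp2) with upper-quartile normalization, against 4.99% of all genes. With library totals only it was 1 (Ctbp2), against 5.47%. On the rod marker scale it was 2, against 14.7%. With a retina left out it was between 0 and 1, against 8.44% to 11.4% of all genes. The count lower was 0 on the rod marker scale, against 0.830%. The cause was not tested. Same-numbered retinas are different mice and their deviations had correlations of -0.23, -0.11 and 0.08, with 0 of 6 retinas closest to its own number. With the replicate block 0 members and 1 gene in all passed, against 2 without it, and the Cplx4 log2 fold change had an unadjusted p of 0.155. Over all genes DESeq2 called 49, edgeR without a filter 9, and edgeR without Wfs1-KO replicate 2 24, against 2. DESeq2 without that retina and the rod marker scale were chosen after seeing the data.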
